A study of Mus musculus with 24 samples.

Results

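The proteasome subunits are the 41 genes of the mouse table whose single symbol carries a Psma, Psmb, Psmc, Psmd, Psme, Psmf or Psmg number and whose count was above 0 in each of the 24 libraries, leaving out the immunoproteasome genes Psmb8, Psmb9 and Psmb10. They are 41 of the 11438 genes tested. They comprise 6 subunits of the alpha ring (Psma1, Psma2, Psma3, Psma5, Psma6 and Psma7), 7 of the beta ring (Psmb1 to Psmb7), 6 ATPases of the base (Psmc1 to Psmc6), 3 other subunits of the base (Psmd1, Psmd2 and Psmd4), 8 subunits of the lid (Psmd3, Psmd6, Psmd7, Psmd8, Psmd11, Psmd12, Psmd13 and Psmd14), 3 activators (Psme2, Psme3 and Psme4), the inhibitor Psmf1, and 7 assembly chaperones (Psmd5, Psmd9, Psmd10 and Psmg1 to Psmg4). Outside the rule stayed Psma4 and Psme1, whose entries list another gene beside them, Psmb11, which had at most 5 counts in a library, and Psma8, which had 0 counts in every library.

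Normal (N) organoids came from ductal cells of wild-type mouse pancreas, and KP organoids from pancreatic tumours of mice in which Cre under the Pdx1 promoter switches on tumour-driving alleles, p53 R172H among them. Both were treated for 1 h with vehicle (DMSO) or with 10 nM CR-31, a rocaglate that inhibits eIF4A, the RNA helicase that unwinds the 5′ ends of mRNAs for the ribosome. With 3 replicates for each of these 4 groups, 12 lysates were split into polysome-associated mRNA (bound by 3 or more ribosomes) and total mRNA, which makes 24 libraries in 8 groups. Organoids were maintained in complete medium, whereas the experiments were done without EGF and N-acetylcysteine. All organoids received cycloheximide for the last 5 min. Whether the replicates were separate organoid lines or cultures of 1 line was not given, so p-values measure the spread between these lysates, which may be technical.

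The proteasome degrades proteins tagged with ubiquitin. Its core particle is a barrel of alpha and beta rings, in which Psmb5, Psmb6 and Psmb7 cleave the substrate with chymotrypsin-like, caspase-like and trypsin-like activity. A regulatory particle caps the barrel: its lid holds the deubiquitinase Psmd14, and its base holds the ring of 6 ATPases that unfolds the substrate and threads it into the core. Dedicated chaperones build the rings and the base, and alternative caps made of Psme proteins can take the place of the regulatory particle. Because all subunits are needed in fixed numbers, their genes are known to be co-ordinately transcribed, with the transcription factor Nfe2l1 raising their mRNAs when proteasome activity falls short, and with Nfe2l2 and NF-Y also acting on some of their promoters.

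The libraries held 47308461 to 267463046 counted reads, and a proteasome gene had between 836 and 100045 counts in a library, so counting error was small beside the spread between replicates. N vehicle replicate 3 stood apart: its median proteasome gene was higher in polysome-associated than in total mRNA by 0.38 on the log2 scale, with 33 of the 41 genes above 0, whereas the other 5 N lysates gave medians between -0.56 and -0.24. In KP lysates this median lay between -0.19 and 0.17. Values of 1 gene across libraries are in CPM, counts scaled to the library size. Total mRNA of KP CR-31 replicate 1 had the highest value of its group for many genes, such as Psmb3, which had 275 CPM against 141 and 171. The lanes or runs named in the labels never held both organoid types, so lane and organoid type cannot be told apart. The 9 markers of duct and epithelium were detected in every library (summed 6192 to 14127 CPM), acinar markers summed to at most 5.60 CPM, and insulin and glucagon genes (Ins1, Ins2 and Gcg) had a count of 0 throughout. As in any bulk measurement, fewer cells of a type and less RNA per cell cannot be told apart.

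The promoters were read where RefSeq on GRCm38.p6 gave a window, which was the case for 34 of the 41 genes (37 windows). Of the 250 bases before the start site, searched on both strands, the core of the antioxidant response element that Nfe2l1 and Nfe2l2 bind (TGACNNNGC) was present in 5 windows, or 13.5%, against 10.2% of all 32851 mouse windows. A CCAAT box, the motif of NF-Y, occurred in 32.4% of the proteasome windows and in 33.8% of all, and a GC box (GGGCGG) in 54.1% and 32.7%. The cyclic AMP response element TGACGTCA was found in 0 of the 37 windows and in 1.55% of all. These are matches of letters and not measured sites. The 5 stretches with the antioxidant core are shown because they hold the motif of the factors named above. Of their genes, Psmb5, Psmb6 and Psmd9 were called higher on KP polysomes in vehicle, and Psmd12 and Psmc6 were not. In that comparison 17 of the 41 genes and 20.9% of all genes were called higher, and a link of motif and call was not tested. Each stretch reads 5′ to 3′ on the strand of the gene, with the match in capitals.
Psmb5: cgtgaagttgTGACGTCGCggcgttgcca
Psmb6: ctaaagagagTGACGGAGC
Psmd9: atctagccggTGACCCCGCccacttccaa
Psmd12: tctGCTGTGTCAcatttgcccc
Psmc6: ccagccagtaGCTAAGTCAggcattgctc
In Psmb5 the stretch is chr14:54618024-54618052 on the minus strand, with the match 47 to 39 bases before the start. In Psmb6 it is chr11:70525338-70525356 on the plus strand and ends directly before the start. In Psmd9 it is chr5:123228149-123228177 on the plus strand, 31 to 23 bases before the start. In Psmd12 (chr11:107479278-107479299) and Psmc6 (chr14:45329587-45329615), both on the plus strand, the match reads on the opposite strand and lies 247 to 239 and 227 to 219 bases before the start.

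The levels of the subunits were first compared with each other in total mRNA, per transcript length (RPKM, reads scaled for transcript length and library size). The proteasome genes were among the more abundant mRNAs of the organoids. Taking the median gene of each library, proteasome mRNAs stood at 65 ± 13 RPKM in N vehicle and 82.6 ± 4.11 RPKM in KP vehicle (mean ± SD, n = 3). When each gene was first averaged over its replicates, the median proteasome gene had 66.4 RPKM in N vehicle and 83.7 RPKM in KP vehicle. The medians over all tested genes, taken in the same way, were 7.06 and 6.89 RPKM. Together they took 0.478% ± 0.066 of the counted reads of total mRNA in N vehicle and 0.549% ± 0.018 in KP vehicle, and 0.461% ± 0.070 and 0.560% ± 0.072 of the reads of polysome-associated mRNA (SD, n = 3). Under CR-31 the shares were 0.534% ± 0.033 (N) and 0.573% ± 0.026 (KP) in total mRNA and 0.443% ± 0.048 and 0.563% ± 0.036 in polysome-associated mRNA.

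Core-particle mRNAs stood above those of the regulatory particle. In N vehicle the median alpha-ring gene had 147 RPKM and the median beta-ring gene 160 RPKM, against 67.7 RPKM for the ATPases, 46.7 RPKM for the other base subunits and 50.8 RPKM for the lid. The chaperones, which are not part of the finished particle, had a median of 29.1 RPKM. In KP vehicle the same medians were 155, 210, 84.4, 78.7, 69.8 and 35.4 RPKM. The 7 beta-ring genes, which encode subunits present in equal numbers, spanned 2.24-fold from the lowest to the highest in N and 2.17-fold in KP.

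Single genes departed from the level of their class. Psmd8, a lid subunit, was the most abundant proteasome mRNA of N vehicle at 326 ± 15.7 RPKM (SD, n = 3), its 3 replicates all above those of Psmb1, the next gene in the order at 280 ± 26.8 RPKM. In KP vehicle Psmd8 was at 219 ± 46.3 RPKM, below Psmb4 (325 ± 14.6 RPKM), Psmb1, Psma7 and Psmb5. The activator Psme4, a large protein that opens the core without ATP, was the lowest in both, at 2.66 ± 1.31 RPKM in N and 4.78 ± 1.65 RPKM in KP. The inhibitor Psmf1 (15 ± 2.35 and 14.8 ± 0.989 RPKM) and the chaperone Psmd9 (15.3 ± 1.56 and 17.8 ± 0.610 RPKM) came next in the order. Most neighbours in the order did not separate: all replicates of a gene lay above those of the next in 3 of the 40 neighbouring pairs in N vehicle and in 7 of 40 in KP vehicle.

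**Figure D1:**
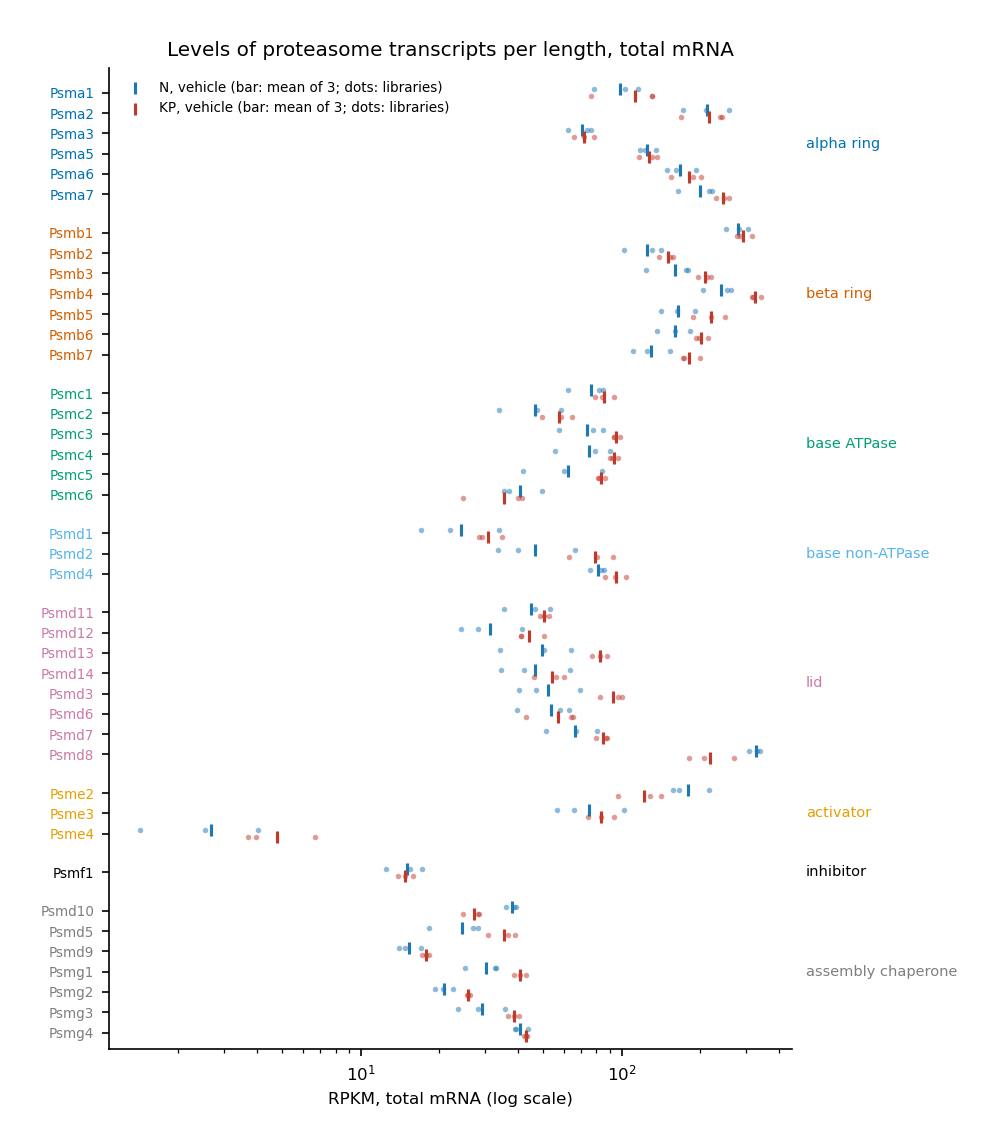
Level of each proteasome gene in total mRNA (RPKM, log axis) in N vehicle and KP vehicle, grouped by role; points are the 3 replicates. Beta-ring genes lie at a median of 160 RPKM in N and 210 RPKM in KP, whereas Psme4 lies at 2.66 and 4.78 RPKM.

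The next comparison asked how proteasome mRNAs on polysomes differed between untreated tumour and normal organoids. On polysomes 17 of the 41 genes were higher in tumour than in normal organoids and 1, Psmd10, was lower (edgeR's quasi-likelihood test, Benjamini-Hochberg adjusted p under 0.25, the threshold used throughout). Over all 11438 genes, 20.9% were called higher and 22.2% lower. The median log2 fold-change of the 41 genes was 0.33, against -0.03 over all genes tested, and 37 of 41 lay above 0. Calls were uneven between the parts of the particle: 6 of 7 beta-ring genes and 6 of 7 chaperones were higher, against 1 of 6 alpha-ring genes, 1 of 6 ATPases, 0 of 3 other base subunits, 3 of 8 lid subunits and 0 of 3 activators. By plain separation of the replicates, all 3 KP values lay above all 3 N values for 14 proteasome genes (18% of all genes) and below them for 1 (15.8% of all genes).

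The 3 catalytic subunits were all higher on KP polysomes. Psmb5, the chymotrypsin-like subunit, had 148, 110 and 194 CPM in N vehicle replicates 1 to 3 and 325, 312 and 225 CPM in KP vehicle, a log2 fold-change of 0.93 ± 0.26 (SE; adjusted p = 0.0325 in edgeR). The groups did not overlap, since no N library reached the lowest KP library. Psmb6, the caspase-like subunit, had 142, 126 and 300 CPM in N and 358, 332 and 272 CPM in KP (0.76 ± 0.30, adjusted p = 0.102). Here the groups overlapped through N vehicle replicate 3, which was above KP replicate 3. Psmb7, the trypsin-like subunit, had 167, 133 and 157 CPM in N and 285, 178 and 227 CPM in KP (0.60 ± 0.22, adjusted p = 0.0815), without overlap.

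Among the other beta-ring genes, which carry no active site, Psmb3 had 107, 82.6 and 152 CPM in N and 261, 240 and 200 CPM in KP (1.04 ± 0.25, adjusted p = 0.0180 in edgeR). Psmb4 had 218, 188 and 334 CPM in N and 504, 441 and 398 CPM in KP (0.86 ± 0.23, adjusted p = 0.0293). For both, every KP library was above every N library. Psmb2 was also higher (0.58 ± 0.21, adjusted p = 0.0849), although its highest N library (114 CPM) was above its lowest KP library (110 CPM), and Psmb1 was the member of the ring that did not pass (0.31 ± 0.25, adjusted p = 0.402). In the alpha ring, which gates the entry to the barrel, Psma7 alone was higher, with 174, 157 and 270 CPM in N and 389, 397 and 272 CPM in KP (0.82 ± 0.24, adjusted p = 0.0376). The 5 other alpha genes had log2 fold-changes between 0.22 and 0.33 and did not pass.

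In the lid, Psmd13 had the largest change of all proteasome genes. Its values were 94.8, 76.5 and 102 CPM in N and 207, 184 and 177 CPM in KP (1.06 ± 0.19, adjusted p = 0.00641 in edgeR), far apart between the groups. Psmd3, another structural lid subunit, had 151, 106 and 185 CPM in N and 304, 296 and 258 CPM in KP (0.96 ± 0.25, adjusted p = 0.0251), again without overlap. Psmd7, which pairs with the deubiquitinase Psmd14, was higher by 0.54 ± 0.20 (adjusted p = 0.0883). Psmd14 itself had 86.7, 52.5 and 88.7 CPM in N and 94.4, 76.7 and 88.6 CPM in KP (0.19 ± 0.30, adjusted p = 0.700), and Psmd6, Psmd8, Psmd11 and Psmd12 lay between -0.12 and 0.27. In the base, the ATPase Psmc3 was higher (0.51 ± 0.23, adjusted p = 0.14), and the other ATPases ranged from -0.34 (Psmc6) to 0.42 (Psmc5). The scaffold subunits of the base, Psmd1 and Psmd2, had log2 fold-changes of -0.10 and 0.16, and the ubiquitin receptor Psmd4 had 0.27.

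All 7 chaperones passed the test, in both directions. Psmg3 and Psmg4, which together help to build the alpha ring, were higher in KP: Psmg3 had 33.4, 20.6 and 37.3 CPM in N and 63.2, 58.9 and 43.1 CPM in KP (0.85 ± 0.26, adjusted p = 0.0443 in edgeR). Psmg4 had 25.6, 21.6 and 21.1 CPM in N and 41.1, 42.1 and 38.4 CPM in KP (0.83 ± 0.20, adjusted p = 0.0185), with little spread within either group. Psmg1 (0.71 ± 0.24, adjusted p = 0.0655) and Psmg2 (0.59 ± 0.24, adjusted p = 0.118), the other pair of alpha-ring chaperones, were higher too, as were the base chaperones Psmd5 (0.54 ± 0.23, adjusted p = 0.130) and Psmd9 (0.57 ± 0.22, adjusted p = 0.10). Psmd10, known as gankyrin and also a base chaperone, was lower, with 59.3, 59.0 and 70.2 CPM in N and 54.6, 35 and 45.2 CPM in KP (-0.48 ± 0.22, adjusted p = 0.153). Psmd10 was thus the 1 chaperone whose KP libraries all lay below its N libraries. The activators Psme2, Psme3 and Psme4 had 0.02, 0.42 and 0.45, and the inhibitor Psmf1 had 0.19, none of them called.

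The 8 genes with the largest changes on polysomes (Psmd13, Psmb3, Psmd3, Psmb5, Psmb4, Psmg3, Psmg4 and Psma7) stayed called under each of 13 other settings, which included leaving out each lysate in turn. The number of calls depended on which lysates were used. Without both lysates of N replicate 3 it was 28 (27 higher, 1 lower), where 26.3% of all genes were called higher and 26.3% lower. Without KP vehicle replicate 1 it was 11 (10 higher, 1 lower), where 14.8% of all genes were called higher and 13.7% lower.

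**Figure D2:**
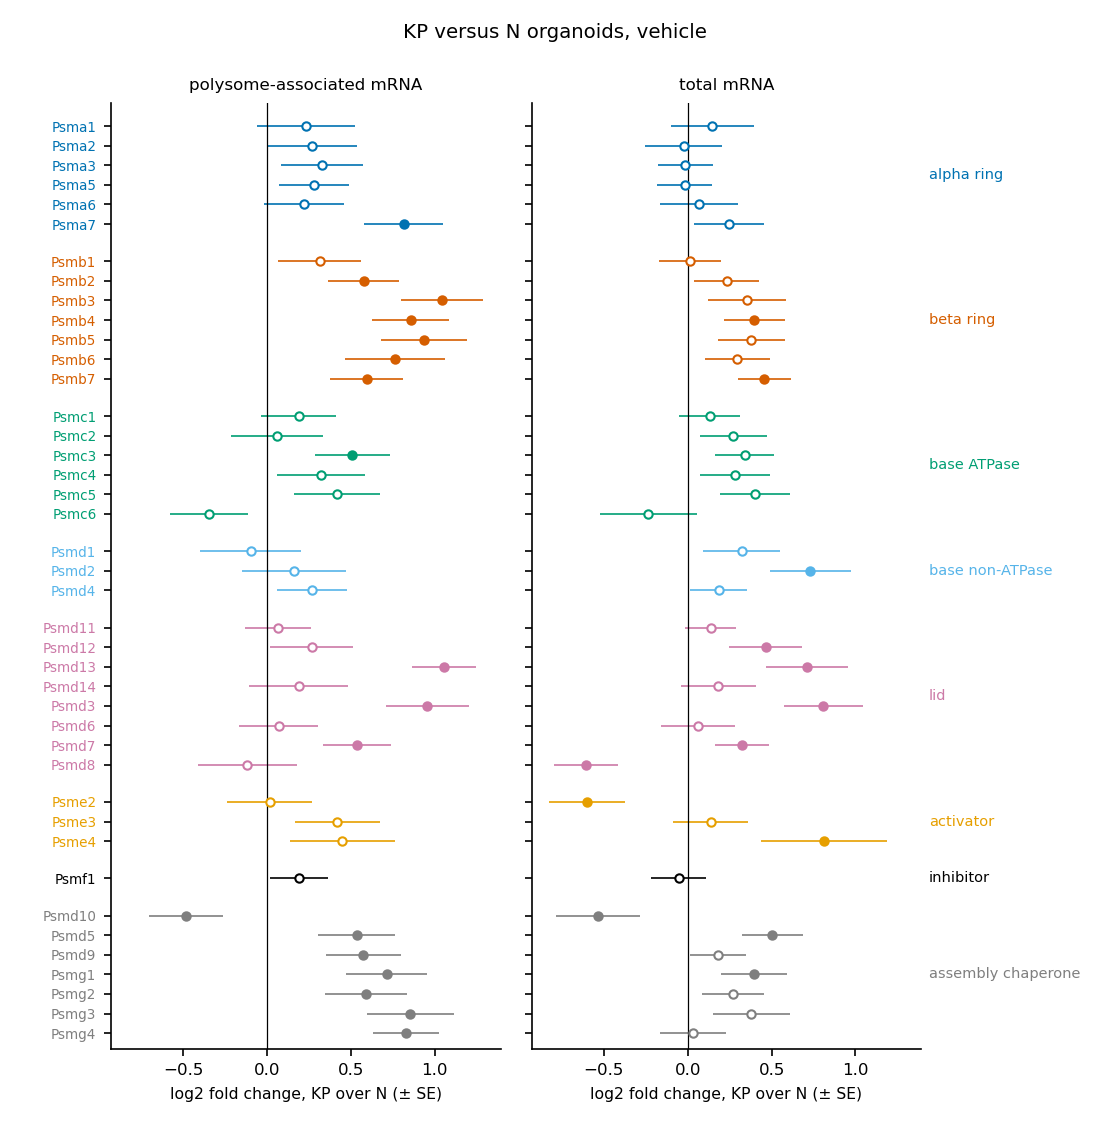
Log2 fold-change of KP over N vehicle for each proteasome gene, in polysome-associated and in total mRNA, grouped by role; bars are standard errors of the edgeR fit, and filled points have an adjusted p under 0.25. In polysome-associated mRNA 17 genes are called higher and 1 lower, and in total mRNA 10 and 3.

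Total mRNA gave fewer and partly different calls. In vehicle, 10 proteasome genes were higher in KP and 3 were lower, where 13.1% of all genes were called higher and 15.4% lower. Their median log2 fold-change was 0.25, against -0.03 over all genes. Of the beta ring, Psmb7 (0.46 ± 0.16, adjusted p = 0.0910 in edgeR) and Psmb4 (0.40 ± 0.18, adjusted p = 0.199) were called, and 0 of the 6 alpha-ring genes. Separation of replicates was more common than calls, with 21 genes whose KP values all lay above N (15.9% of all genes) and 3 whose values all lay below (16.5% of all genes).

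Of the catalytic subunits, Psmb7 had 156, 139 and 129 CPM of total mRNA in N and 206, 189 and 187 CPM in KP. Psmb5 had 175, 162 and 149 CPM in N and 205, 245 and 182 CPM in KP (0.38 ± 0.20, adjusted p = 0.267). Psmb6 had 174, 217 and 170 CPM in N and 219, 225 and 247 CPM in KP (0.30 ± 0.19, adjusted p = 0.383). All 3 separated by organoid type, although only Psmb7 passed the test.

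Of the 10 higher calls in total mRNA, 5 were subunits of the regulatory particle. Psmd3 had 156, 116 and 104 CPM in N and 229, 234 and 196 CPM in KP (0.81 ± 0.23, adjusted p = 0.0514 in edgeR). Psmd13 had 106, 90.3 and 64.2 CPM in N and 146, 146 and 134 CPM in KP (0.71 ± 0.24, adjusted p = 0.0938). Psmd2, the scaffold of the base, had 207, 136 and 120 CPM in N and 291, 270 and 208 CPM in KP (0.73 ± 0.24, adjusted p = 0.0829), its groups barely separated (207 against 208 CPM). Psmd12 (0.47), Psmd7 (0.32) and the chaperones Psmd5 (0.50) and Psmg1 (0.40) were called as well. Psmd5 had 60.5, 62.9 and 45 CPM in N and 84.6, 84.8 and 69.5 CPM in KP, and the activator Psme4 had 27.4, 10.5 and 19.6 CPM in N and 45.8, 28.9 and 26.5 CPM in KP (0.81 ± 0.38, adjusted p = 0.208), the former without and the latter with overlap.

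Psmd8, Psme2 and Psmd10 were lower in KP total mRNA. Psmd8 had 540, 575 and 562 CPM in N and 291, 462 and 347 CPM in KP (-0.61 ± 0.19, adjusted p = 0.0697 in edgeR). Psme2, which with Psme1 forms the interferon-inducible activator ring, had 122, 182 and 147 CPM in N and 76.0, 107 and 115 CPM in KP (-0.60 ± 0.23, adjusted p = 0.125). Psmd10 had 55.5, 65.5 and 67.7 CPM in N and 43.6, 40.6 and 46 CPM in KP (-0.54 ± 0.25, adjusted p = 0.211). All KP values of the 3 genes lay below all N values. On polysomes Psmd8 and Psme2 did not show this, with log2 fold-changes of -0.12 and 0.02. Reads shared with the near-identical gene Psme2b were discarded by the authors, so the level of Psme2 is uncertain.

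These calls in total mRNA were less stable than those on polysomes. Of the 8 largest, Psmd3 kept its call under all 13 settings. The count of 13 fell to 7 without N vehicle replicate 2, 3 without N vehicle replicate 3, 2 without KP vehicle replicate 1, 6 without KP vehicle replicate 2, 8 without KP vehicle replicate 3, and 4 without both lysates of N replicate 3; under these settings 14.1% to 23.4% of all genes were called in either direction.

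**Figure D3:**
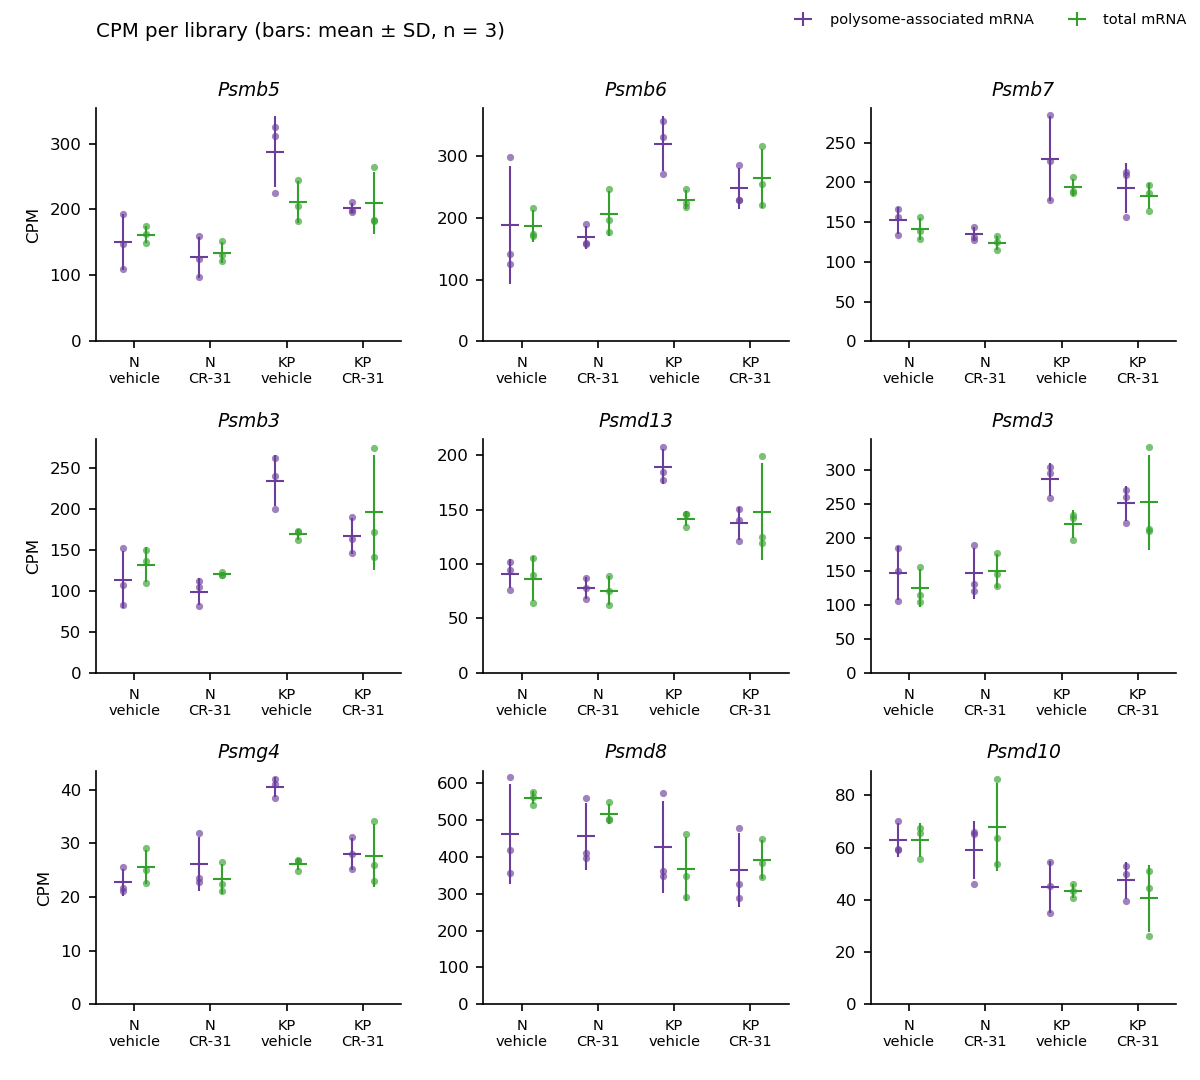
CPM of 9 proteasome genes in each library of the 8 groups; points are replicates, horizontal marks are group means and vertical bars are SDs (n = 3). Psmd13 on polysomes lies at 76.5 to 102 CPM in N vehicle and at 177 to 207 CPM in KP vehicle, whereas Psmd10 lies at 59.0 to 70.2 and 35 to 54.6 CPM.

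The same comparison was made between the CR-31-treated lysates, which share no library with the vehicle comparison although lysates of the same number deviated together. On polysomes 17 proteasome genes were again higher in KP and 0 lower, where 11.2% of all genes were called higher and 13.8% lower. The median log2 fold-change of the 41 genes was 0.47 (-0.02 over all genes). Of the 17 genes, 13 were also called higher in vehicle, which is 76.5% of either list; over all genes 1043 higher calls were shared, 43.6% of those in vehicle and 81.7% of those under CR-31. The 13 were Psma7, Psmb2, Psmb3, Psmb4, Psmb5, Psmb7, Psmc3, Psmd3, Psmd5, Psmd7, Psmd13, Psmg1 and Psmg2.

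Psmd13 again led, with 87.6, 67.5 and 77.8 CPM in N CR-31 and 140, 121 and 150 CPM in KP CR-31 (0.82 ± 0.19, adjusted p = 0.0286 in edgeR). Psmd3 had 190, 120 and 131 CPM in N and 270, 222 and 260 CPM in KP (0.77 ± 0.25, adjusted p = 0.0836). Both kept the separation they had in vehicle. Psmb3 had 104, 81.0 and 112 CPM in N and 164, 146 and 190 CPM in KP (0.75 ± 0.24, adjusted p = 0.0880). Psmb5 had 125, 98.0 and 160 CPM in N and 199, 196 and 212 CPM in KP (0.66 ± 0.26, adjusted p = 0.143). For Psmb6 the values were 158, 159 and 191 CPM in N and 229, 229 and 286 CPM in KP, separated but not called (0.55 ± 0.30, adjusted p = 0.305). Psmb7 had 128, 132 and 145 CPM in N and 214, 156 and 209 CPM in KP (0.52 ± 0.22, adjusted p = 0.178).

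Psma1, Psmc1, Psmc5 and Psmd12 were called under CR-31 and not in vehicle, but the difference between treatments, tested itself as an interaction, was called for none of them. Psmd12, a lid scaffold, had 67.9, 57.5 and 44.8 CPM in N and 113, 82.7 and 91.0 CPM in KP (0.75 ± 0.25, adjusted p = 0.0931 in edgeR). Psma1 had 88.6, 111 and 84.7 CPM in N and 186, 105 and 158 CPM in KP (0.65 ± 0.29, adjusted p = 0.207), with overlap at KP replicate 2. The ATPase Psmc3, called in both treatments, had 154, 156 and 108 CPM in N and 209, 189 and 227 CPM in KP (0.58 ± 0.23, adjusted p = 0.147), and the chaperone Psmg1 had 23.9, 26.2 and 33.9 CPM in N and 46.4, 35.3 and 43.6 CPM in KP (0.58 ± 0.24, adjusted p = 0.178). Both separated by organoid type. Of the 8 largest changes Psmd13 alone kept its call under all 13 settings. The count of 17 fell to 9 with upper-quartile scaling, 8 with a minimum mean of 10 CPM, 4 without N CR-31 replicate 2, 2 without KP CR-31 replicate 1 and 4 without KP CR-31 replicate 3; under these settings 9.48% to 24.7% of the genes tested were called in either direction.

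In total mRNA under CR-31, 11 proteasome genes were higher in KP and 4 lower, where 18.9% of all genes were called higher and 21% lower. Psmd13 had 89.2, 74.8 and 62.7 CPM in N and 199, 120 and 125 CPM in KP (0.97 ± 0.25, adjusted p = 0.0298 in edgeR). Psmb7 had 125, 115 and 133 CPM in N and 196, 164 and 187 CPM in KP (0.56 ± 0.16, adjusted p = 0.0416). Psmb5 had 152, 121 and 131 CPM in N and 265, 182 and 183 CPM in KP (0.64 ± 0.20, adjusted p = 0.0585). In all of these the KP libraries lay above the N libraries, with KP replicate 1 the highest. Psmd3 had 177, 128 and 147 CPM in N and 333, 212 and 210 CPM in KP (0.74 ± 0.23, adjusted p = 0.0624), and Psmb3 had 123, 119 and 119 CPM in N and 275, 141 and 171 CPM in KP (0.70 ± 0.23, adjusted p = 0.0714). Psmb4, Psmb6, Psmc3, Psmd5, Psmg1 and Psmg3 were called higher with log2 fold-changes between 0.35 and 0.53.

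Lower were Psmd10, Psme2 and Psmd8, the 3 genes lower in vehicle, and also the ATPase Psmc6. Psmd10 had 53.5, 63.5 and 86.3 CPM in N and 26.2, 44.5 and 51.0 CPM in KP (-0.74 ± 0.25, adjusted p = 0.0761 in edgeR). Psme2 had 116, 172.5 and 159 CPM in N and 90.5, 91.9 and 111 CPM in KP (-0.61 ± 0.23, adjusted p = 0.101). Neither overlapped. Psmc6 had 71.8, 64.8 and 104 CPM in N and 33.9, 48.6 and 71.0 CPM in KP (-0.65 ± 0.29, adjusted p = 0.159), where the groups overlapped, and Psmd8 had -0.40 ± 0.19 (adjusted p = 0.188). Without KP CR-31 replicate 1 the 15 calls became 5 (4 higher, 1 lower), where 8.80% of all genes were called higher and 9.76% lower.

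How much of each mRNA was on polysomes was then compared with total mRNA of the same lysate, relative to the average mRNA. In N vehicle 1 proteasome gene, Psme4, was relatively enriched on polysomes and 7 were depleted, where 8.83% of all genes were called enriched and 6.36% depleted. The depleted genes were Psma2 (-0.57), Psma6 (-0.53), Psma5 (-0.51), Psmg2 (-0.48), Psme2 (-0.44), Psmb1 (-0.42) and Psme3 (-0.34), so 3 of the 6 alpha-ring genes were among them. In KP vehicle 4 genes were enriched, Psme4 (0.83), Psmg4 (0.53), Psmg3 (0.51) and Psmd9 (0.35), and Psma6 was depleted (-0.43), where 14.2% of all genes were called enriched and 13.3% depleted.

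Psme4 stood out by lysate, with log2 ratios of 1.18, 2.06 and 0.43 in N vehicle (fitted 1.22 ± 0.27, adjusted p = 0.0226 in edgeR) and 0.51, 1.10 and 0.88 in KP vehicle (0.83 ± 0.26, adjusted p = 0.0947). All 6 were above 0. Psma6 had -0.43, -0.94 and -0.23 in N (adjusted p = 0.104) and -0.15, -0.55 and -0.60 in KP (adjusted p = 0.15), all 6 below 0. Psmg4 had 0.11, -0.25 and -0.52 in N and 0.62, 0.55 and 0.43 in KP (adjusted p = 0.0775 in KP). The number of calls changed with the lysate left out. In N the 8 calls became 4 without vehicle replicate 1 (12.5% of all genes were called in either direction), 0 without replicate 2 (1.75%) and 25 without replicate 3 (1 enriched, 24 depleted; 12.4% and 9.73% of all genes). In KP the 5 calls became 0, 0 and 1 without replicates 1, 2 and 3, where 0.481%, 0.525% and 6.08% of all genes were called.

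The difference of this ratio between KP and N vehicle, the change in translational efficiency, was called for 0 of the 41 proteasome genes and for 0 of all genes (0%) by edgeR's interaction test; 2 proteasome genes and 1296 of all genes had an unadjusted p under 0.05, and DESeq2 called 1 proteasome gene and 3.06% of all genes. The 2 were Psmg4 (0.75 ± 0.21) and Psme2 (0.60 ± 0.24), each with an adjusted p = 0.433. The next in order were Psmd2 (-0.66 ± 0.31, adjusted p = 0.441) and Psmb3 (0.67 ± 0.32, adjusted p = 0.442). As a description, all 13 core-particle genes lay above 0 (median 0.29), whereas the 3 base subunits that are not ATPases had a median of -0.49, and the 41 genes a median of 0.17 (0.00 over all genes).

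The result for translational efficiency changed with N vehicle replicate 3 and with the form of the test. Without that lysate 14 proteasome genes were called (13 higher, 1 lower), where 8.36% of all genes were called higher and 10.4% lower. Without both lysates of N replicate 3 it was 26 (25 higher, 1 lower), where 20% of all genes were called higher and 15.8% lower. A per-gene regression of the polysome on the total values, like the model of the study but without its limits on the slope, called 7 higher in KP. These were Psma7, Psmb3, Psmb4, Psmb5, Psmb6, Psmd13 and Psmg4. It called 0 lower, where it called 6.62% of all genes higher and 4.46% lower. For the base subunits that are not ATPases it gave -0.25 (Psmd2), 0.0009 (Psmd1) and 0.34 (Psmd4), unlike their median of -0.49 in edgeR.

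The length of the mRNA, as implied by counts and RPKM together, differed between the roles and went with this measure. Beta-ring mRNAs had a median of 949 bases, alpha-ring mRNAs 1107, ATPases 1528, lid subunits 1582, and the other base subunits 2961, against 2811 over all tested genes. The shortest was Psmg4 with 554 bases and the longest Psme4 with 6442. Across the 41 genes, Pearson's r between log2 length and the change in translational efficiency was -0.67 (Spearman's rho -0.62); across all 11438 genes it was -0.50 (rho -0.55). With the polysome difference of KP and N it was -0.31 among the proteasome genes and -0.24 over all genes, and with the difference in total mRNA 0.27 and -0.01. Genes are not independent replicates, all values share the same 12 vehicle libraries or 6 of them, and the part of length in the differences was not tested.

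**Figure D4:**
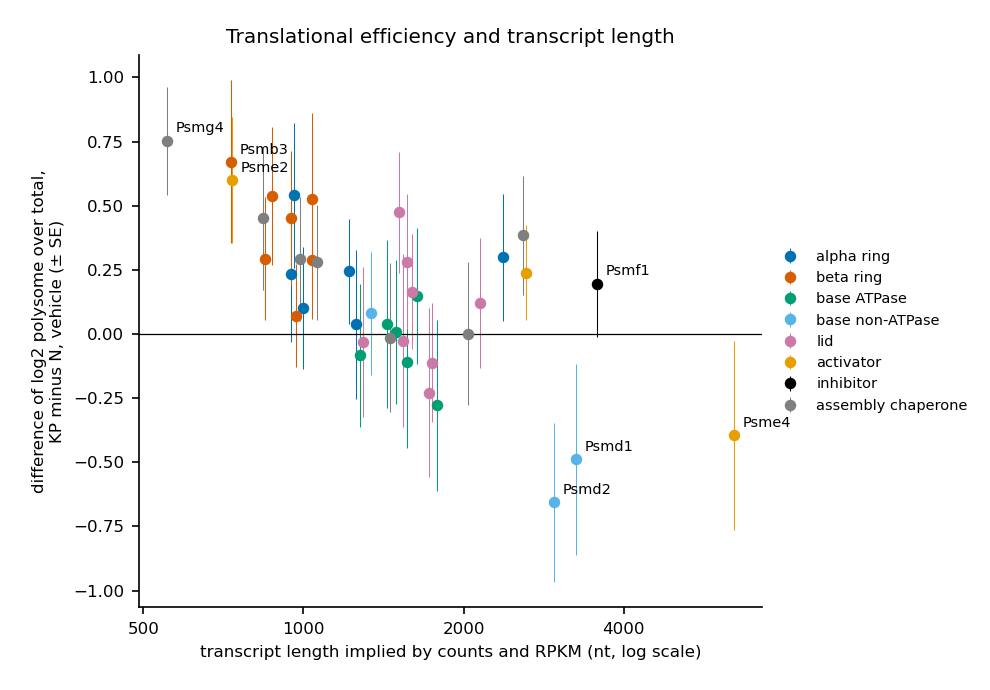
Change in translational efficiency between KP and N vehicle (log2) against the implied transcript length of each proteasome gene (bases, log axis), coloured by role. Psmg4, the shortest mRNA at 554 bases, lies at 0.75, and Psme4, the longest at 6442 bases, lies at -0.39; r is -0.67 over 41 genes.

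The effect of 1 h of CR-31 was compared within each organoid type. In KP polysomes edgeR called 0 of the 41 proteasome genes and 0 of all genes (0%); 3 proteasome genes and 406 of all genes had an unadjusted p under 0.05, and DESeq2 called 0 proteasome genes. The vehicle libraries are the ones used in the comparison of KP with N above. As a description, all 7 beta-ring genes lay below 0 (median -0.31) and all 6 ATPases above 0 (median 0.16), with a median of -0.08 over the 41 genes and -0.02 over all genes. This change also went with mRNA length, by which the beta ring is the shortest class: Pearson's r with log2 length was 0.51 among the proteasome genes (rho 0.56) and 0.37 over all genes (rho 0.43), whose values share the same 6 libraries, and the part of length was not tested. On N polysomes r was 0.23 and -0.03. The order of these classes was the same with RLE or upper-quartile scaling and in DESeq2, while without KP vehicle replicate 1 or without KP CR-31 replicate 2 the beta ring had 6 of 7 below 0, and without KP vehicle replicate 2 or without KP CR-31 replicate 1 the ATPases had 4 of 6 above 0. With the replicate block, with lane as a term or without KP CR-31 replicate 3 the ATPases had 5 of 6 above 0.

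The 4 genes with the smallest p, each with an adjusted p = 1.0 in edgeR, were chosen for that p, so their directions and separation are a description. Psmg4 had 41.1, 42.1 and 38.4 CPM in KP vehicle and 28, 25.1 and 31.1 CPM with CR-31 (-0.53 ± 0.20). Psmd13 had 207, 184 and 177 CPM and 140, 121 and 150 CPM (-0.47 ± 0.19). Psmb3 had 261, 240 and 200 CPM and 164, 146 and 190 CPM (-0.49 ± 0.24). Psmd14, the deubiquitinase, went the other way, with 94.4, 76.7 and 88.6 CPM in vehicle and 156, 127 and 132 CPM with CR-31 (0.68 ± 0.30). The vehicle and CR-31 libraries of these 4 did not overlap, as for 8.94% of all genes upward and 10.5% downward.

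With the replicate number as a block, since same-numbered lysates of an organoid type deviated together, edgeR called 7 proteasome genes in KP polysomes, where 8.30% of all genes were called higher and 11.1% lower. Higher was Psmd14 (0.68 ± 0.27, adjusted p = 0.225). Lower were Psmg4 (-0.53 ± 0.17, adjusted p = 0.192), Psmd13 (-0.47 ± 0.15, adjusted p = 0.192), Psmg3 (-0.46 ± 0.15, adjusted p = 0.193), Psmb5 (-0.49 ± 0.17, adjusted p = 0.195), Psmb3 (-0.49 ± 0.18, adjusted p = 0.198) and Psmd9 (-0.39 ± 0.14, adjusted p = 0.199). These 7 thus hold a catalytic subunit, another beta subunit, 2 lid subunits and 3 chaperones. The catalytic subunits had 325, 312 and 225 CPM in vehicle and 199, 196 and 212 CPM with CR-31 for Psmb5, 358, 332 and 272 against 229, 229 and 286 CPM for Psmb6, and 285, 178 and 227 against 214, 156 and 209 CPM for Psmb7. Psmb5 was the 1 of the 3 whose groups did not overlap. By replicate number, Psmb5 and Psmb7 were lower with CR-31 in every pair, whereas Psmb6 was higher in replicate 3. Psmb6 and Psmb7 were not called with the block.

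**Figure D5:**
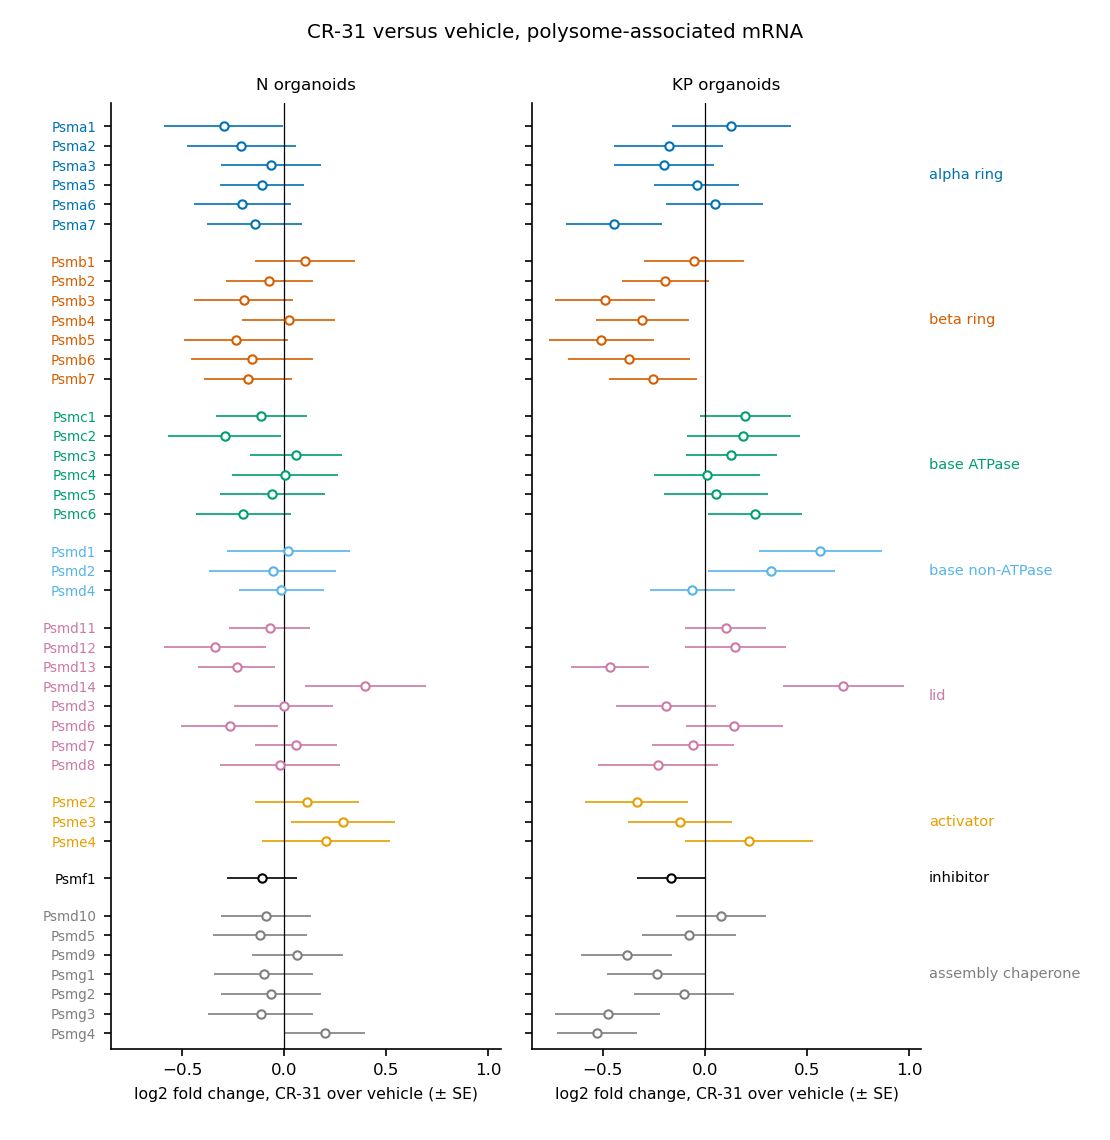
Log2 fold-change of CR-31 over vehicle in polysome-associated mRNA of N and of KP organoids for each proteasome gene, grouped by role; bars are standard errors of the edgeR fit without a block, in which 0 genes were called. In KP the 7 beta-ring genes lie below 0 with a median of -0.31, and Psmd14 lies at 0.68.

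In KP total mRNA, edgeR called 0 proteasome genes and 0 of all genes (0%), DESeq2 called 0 proteasome genes, and 1 proteasome gene and 109 of all genes had an unadjusted p under 0.05. That gene, Psmc3, had 163, 171.8 and 179 CPM in vehicle and 266, 199 and 220 CPM with CR-31 (0.41 ± 0.18, adjusted p = 1.0), without overlap, as for 4.12% of all genes upward. Psmd4 (0.32 ± 0.17), Psmc4 (0.39 ± 0.21) and Psmd14 (0.25 ± 0.22) followed in the order of p.

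N organoids gave 0 calls as well. On N polysomes edgeR and DESeq2 called 0 proteasome genes, edgeR called 0 of all genes (0%), and 0 proteasome genes and 48 of all genes had an unadjusted p under 0.05. The smallest p belonged to Psmd12, with 66.0, 53.9 and 95.3 CPM in vehicle and 67.9, 57.5 and 44.8 CPM with CR-31 (-0.34 ± 0.25, adjusted p = 1.0), a difference that came from replicate 3. In N total mRNA edgeR called 0 proteasome genes and 0 of all genes (0%), DESeq2 called 0 proteasome genes, and 4 proteasome genes and 297 of all genes had an unadjusted p under 0.05. These were the 3 base subunits that are not ATPases and Psmd14. Psmd14 had 103, 74.8 and 63.8 CPM in vehicle and 133, 108 and 117 CPM with CR-31 (0.57 ± 0.22, adjusted p = 1.0). Psmd1 had 116, 82.0 and 66.6 CPM against 147, 104 and 145 CPM (0.58 ± 0.23), Psmd2 had 207, 136 and 120 CPM against 279, 190 and 216 CPM (0.57 ± 0.24), and Psmd4 had 120, 128 and 122 CPM against 148, 142 and 187 CPM (0.37 ± 0.17). Psmd14 and Psmd4 separated by treatment, as did 3.58% of all genes upward, and Psmd1 and Psmd2 overlapped. By replicate number, all 4 were higher with CR-31 in every pair. With the replicate number as a block edgeR called none of them (adjusted p = 0.369 to 0.534).

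Translational efficiency under CR-31 was called for 0 proteasome genes in KP and 0 in N (0% of all genes in each) by edgeR, and for 0 in each by DESeq2. In KP 1 proteasome gene and 627 of all genes had an unadjusted p under 0.05, Psmg4 (-0.53 ± 0.21, adjusted p = 0.529), and in N 1 and 328, Psmd2 (-0.72 ± 0.31, adjusted p = 0.736). The regression on total mRNA, with variances moderated by limma and the replicate number as a block, called 7 in KP, where 6.02% of all genes were called higher and 7.76% lower, and 0 in N (0% of all genes); without the block it called 0 in each. Higher were Psmd2 (0.96 ± 0.23), Psmd14 (0.86 ± 0.33) and Psmd1 (0.78 ± 0.21), and lower were Psmg4 (-0.53 ± 0.19), Psmb5 (-0.49 ± 0.17), Psmd13 (-0.46 ± 0.15) and Psmg3 (-0.45 ± 0.16), with adjusted p = 0.240 to 0.249. The limits on the slope used in the study were not applied. EdgeR's interaction with the same block gave 0.16 ± 0.33 for Psmd2, 0.52 ± 0.39 for Psmd14 and 0.45 ± 0.42 for Psmd1. The lower genes had -0.53 (Psmg4) to -0.41 (Psmb5) there, and none of these genes was called. The difference of the CR-31 effect between KP and N, tested itself, was called for 0 of the 41 genes in either fraction by edgeR (0% of all genes in each) and DESeq2. On polysomes it ranged from -0.73 (Psmg4, adjusted p = 0.999) to 0.55 (Psmd1), with 1 proteasome gene and 258 of all genes at an unadjusted p under 0.05. In total mRNA it ranged from -0.42 (Psmd12) to 0.34 (Psmb3), and 0 proteasome genes and 15 of all genes had a p under 0.05. With the replicate block edgeR still called 0 of all genes (0%) for this difference on polysomes. There 1623 of all genes had an unadjusted p under 0.05. Of the proteasome genes these were Psmg4 (-0.72 ± 0.24, adjusted p = 0.346) and Psmd9 (-0.48 ± 0.20, adjusted p = 0.348).

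Within the sequencing lanes or runs, the median CR-31 effect over the 41 genes on N polysomes was 0.11 in the lane with vehicle replicates 1 and 2 and -0.43 in the lane with vehicle replicate 3, against -0.07 pooled. In N total mRNA it was -0.02 and 0.28 (0.07 pooled). On KP polysomes the medians were -0.02 and -0.04 (-0.08 pooled), and in KP total mRNA 0.22 and -0.03 (0.08 pooled). Each of these lane values sets 2 libraries against 1 and mixes replicate numbers, so they are a description and were not compared between lanes.

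The immunoproteasome genes, which replace the catalytic subunits in cells exposed to interferon, were looked at beside the constitutive ones. Psmb8 was lower in KP: total mRNA had 9.32, 21.8 and 20.8 CPM in N vehicle and 1.18, 1.24 and 3.86 CPM in KP vehicle (-3.04 ± 0.67, adjusted p = 0.0186 in edgeR), and polysome-associated mRNA had 6.95, 16 and 25.9 CPM and 1.43, 1.23 and 5.57 CPM (-2.57 ± 0.78, adjusted p = 0.0444). No KP library reached the lowest N library, and the call held under all 12 other settings in both fractions. Psmb9 had 1.70, 4.16 and 6.40 CPM of total mRNA in N and 1.67, 1.09 and 2.50 CPM in KP (-1.22 ± 0.60, adjusted p = 0.236), with overlap, and this call was lost under 6 of 12 settings, which included leaving out KP vehicle replicate 1 or 2 or N vehicle replicate 2 or 3 (adjusted p = 0.11 to 0.60 without 1 lysate). Psmb10 had 17.3, 33.6 and 24.1 CPM in N and 17.6, 16.9 and 25.2 CPM in KP and was not called (-0.33 ± 0.32, adjusted p = 0.573). All 6 immune marker genes were detected, and their summed total mRNA was 5.68 to 15.9 CPM in N vehicle and 2.25 to 4.0 CPM in KP vehicle; on polysomes it was 4.96 to 19.9 and 3.05 to 33.2 CPM. Their part in the difference was not tested.

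Other genes of the pathway were called at shares near those over all genes. Of 27 tested (the immunoproteasome, further subunits, bound enzymes, shuttles, transcription factors, ubiquitin activation and the segregase), 4 were higher and 5 lower on KP polysomes (20.9% and 22.2% of all genes), and 5 higher and 4 lower in KP total mRNA (13.1% and 15.4% of all genes). Their medians were 0.00 and 0.14, and 0 were called by CR-31 within an organoid type in either fraction. The ubiquitin receptor Adrm1 (0.74 ± 0.21, adjusted p = 0.0340 in edgeR), the deubiquitinase Uchl5 that docks on it (0.62 ± 0.24, adjusted p = 0.101), the shuttle Ubqln4 (0.73 ± 0.22, adjusted p = 0.0427) and the NF-Y subunit Nfyc (0.65 ± 0.18, adjusted p = 0.0330) were higher on polysomes. The other NF-Y subunits, Nfya (-0.23 ± 0.25, adjusted p = 0.561) and Nfyb (-0.09 ± 0.20, adjusted p = 0.807), were not called. Lower there were Psmb8, the shuttle Ubqln2 (-0.74), the proteasome-binding Zfand5 (-0.90), the activating enzyme Uba6 (-1.03) and the segregase cofactor Ufd1l (-0.45).

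In total mRNA the segregase Vcp, which unfolds ubiquitinated proteins before the proteasome, was higher (0.80 ± 0.22, adjusted p = 0.0426 in edgeR), as were Uba1 (0.59), Uchl5 (0.51), Ubqln4 (0.57) and AI314180 (0.78), and Psmb8, Psmb9, Zfand5 (-0.59) and Ufd1l (-0.44) were lower. Of these calls and those on polysomes, Adrm1, Nfyc, Ubqln4 and Zfand5 on polysomes, Vcp in total mRNA and Psmb8 in both fractions held under all other settings, and the rest were lost under 2 to 7 settings. The transcription factors Nfe2l1 (-0.44 ± 0.26, adjusted p = 0.264) and Nfe2l2 (0.15 ± 0.30, adjusted p = 0.772) and the core chaperone Pomp (0.40 ± 0.26, adjusted p = 0.314) did not pass on polysomes.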

How the data were processed

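The 24 libraries were grouped from the sample labels. Per the labels and methods, the authors sequenced paired reads, ran HISAT2 with its defaults, dropped reads with several matches and counted the rest on coding RefSeq transcripts; the alignment is said to be to hg38, although the genes are mouse. The authors deposited raw counts per gene and library, and RPKM values beside them. Counts served every test and RPKM served only levels between genes; transcript length was implied from both. The 11438 genes with 1 symbol, in 1 of the 19895 entries, and at least 1 count in every library were tested.

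Analyses used edgeR 4.0.16, DESeq2 1.42.0 and limma 3.58.1 (R 4.3.3), and pandas 2.3.3, numpy 2.4.6, scipy 1.17.1 and matplotlib 3.10.9 (Python 3.11.15). Counts were scaled with TMM and fitted with edgeR's quasi-likelihood test over 4 groups, for each fraction apart; translational efficiency was the interaction of fraction and group over 24 libraries with the lysate as a block. P-values were adjusted over all 11438 genes (Benjamini-Hochberg, threshold 0.25 as in the study). CPM are per TMM-scaled library. The scripts were tested on simulated data. Proteasome genes and lists were chosen with earlier results of these data known. Some items of the fixed pathway list and of the genotype are not reported here. Values per library are given for the 3 catalytic subunits, for at most 8 called genes with the largest change per comparison and, where none was called, for at most 4 with the smallest p.

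Same-numbered vehicle and CR-31 lysates deviated together (r = 0.55 to 0.89 in N, 0.45 to 0.80 in KP; all 6 pairs of each above 0.1), so the label numbers pair them; N with KP gave -0.17 to 0.28 (4 of 12 over 0.1), so they do not pair organoid types.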

Additional observations from a re-analysis of the deposited data

How the results depend on the processing

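The calls tried were those of at most 8 proteasome genes with the largest change in each comparison with calls, 45 in all. Under 541 alternatives, 456 kept the direction and the call, 85 lost the call and 0 reversed it. RLE scaling and DESeq2 lost 0 of the 45 calls, upper-quartile scaling lost 1, a mean of at least 10 CPM lost 2, no filter on low counts lost 4 and the replicate block lost 3. The other losses came from leaving out a lysate, where an arm with 2 lysates borrows its spread from the other groups.

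Counts of called proteasome genes moved by over 1.5 times as follows, and the cause was not tested except for the stricter threshold, which by its construction calls fewer. At an adjusted p under 0.05, KP against N gave 8 calls on polysomes and 0 in total mRNA in vehicle, and 1 and 2 under CR-31, where 15.2%, 8.99%, 6.02% and 10.6% of all genes were called; polysome against total mRNA gave 1 in N and 0 in KP vehicle (3.58% and 1.12% of all genes). KP against N under CR-31 on polysomes gave 9 with upper-quartile scaling and 8 with a mean of at least 10 CPM (24.7% and 21.6% of the genes tested). Polysome against total mRNA in N vehicle gave 5 with no filter on low counts (8.15%). For translational efficiency of KP against N, DESeq2 gave 1 and the regression on total mRNA 7 (3.06% and 11.1% of all genes).

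Leaving out 1 lysate, or both lysates of N replicate 3, gave 11 to 28 calls for KP against N vehicle on polysomes, 2 to 14 in total mRNA, 2 to 18 under CR-31 on polysomes, and 5 to 18 under CR-31 in total mRNA; over all genes the shares called were 28.5% to 52.6%, 14.1% to 32.8%, 9.48% to 34.7% and 18.6% to 42.3%. For translational efficiency of KP against N it gave 0 to 26 (14 without N vehicle replicate 3), for polysome against total mRNA 0 to 28 in N vehicle and 0 to 1 in KP vehicle, where 0% to 35.8%, 1.75% to 35.7% and 0.481% to 6.08% of all genes were called. The counts of 26 and 28 came from leaving out both lysates of N replicate 3.

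When the replicate block was added for each organoid type, KP against N gave 22 calls in total mRNA of vehicle, and 31 on polysomes and 24 in total mRNA under CR-31, where 56.4%, 58.2% and 65.1% of all genes were called in either direction; the numbers pair no N lysate with a KP lysate, so this removes spread among lysates of 1 type from the error. For CR-31 in KP polysomes the block gave 7 calls (19.3% of all genes), for translational efficiency under CR-31 in KP the regression with the replicate block gave 7 (3 higher, 4 lower; 6.02% and 7.76% of all genes), and for translational efficiency of KP against N it gave 30 (28 higher, 2 lower; 27.9% and 26.5% of all genes). It changed no other count of calls by over 1.5 times. Sequencing lane as a term left the CR-31 counts at 0. Each group had 3 lysates, and what limits the number of calls was not tested.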
